A study of Mus musculus with 16 samples.

Results

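Genes of fatty acid uptake, intracellular fatty acid binding and lipid droplet coating were followed across mouse mammary organoids of 4 genotypes. They are Cd36, Lpl, Angptl4, Pparg, Fabp3, Fabp4, Fabp5, Plin2, Plin4 and Cidea, 10 of the 55487 gene identifiers in the count table, matched by symbol. The set was chosen by the counts of Cd36 and Angptl4 themselves, which differ by genotype in these data, so the levels of those genes are given as a description and carry no test. The other 8 were tested in a fit across all genes. The members and the pathway lists were chosen with earlier results of these data known, so counts of them below may partly reflect that choice. All 10 are among the 24252 genes that passed the filter on low counts. Fabp4 passed through its WT samples and would not pass without them, so its tests against WT are a description. It is left out of the counts of members below, except where they are said to include it.

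An organoid is a small self-organized culture of tissue cells. The samples were WT organoids from normal breast (n = 3) and organoids from breast tumors that carry a mutant PIK3CA (n = 4), a mutant HER2 (n = 4) or both mutations (n = 5, the double mutant). The series title names the alleles as HER2 V777L and PIK3CA H1047R. The sources used here do not say how the alleles were introduced, which promoter drives them, or whether samples of a genotype come from different mice. The p-values below set differences between genotypes against the spread between these samples, and may therefore not hold for other mice. All organoids grew in the same medium, which held epidermal growth factor, B27 supplement, N-acetyl-cysteine and medium conditioned with Rspo1 and Noggin. Normal and tumor breast separate WT from every mutant genotype, so genotype and tissue source cannot be told apart in a comparison with WT or in the interaction defined below, which also uses WT.

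CD36 is a membrane protein that takes up long-chain fatty acids. Lipoprotein lipase, the product of Lpl, releases fatty acids from circulating triglycerides, and ANGPTL4 is a secreted inhibitor of that enzyme. Inside the cell, the FABP proteins carry fatty acids, and perilipins such as PLIN2 coat the lipid droplets in which they are stored. Many of these genes are known targets of the PPAR nuclear receptors, which bind fatty acids and act on DNA as heterodimers with RXR. In the mammary gland the same machinery supplies the fat of milk.

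A PPAR-RXR dimer is known to bind a direct repeat of the hexamer AGGTCA with 1 base between the copies. Promoter sequences from RefSeq (GRCm38.p6), matched by symbol, were searched for 5 of the 10 genes, namely Cd36, Pparg, Fabp3, Plin2 and Plin4, as the 250 bases before each annotated start. Cidea was left out of this search, and its promoter is not reported here. The windows of Cd36, the gene with the widest range of levels, and Plin2, the most abundant gene of the set, are shown 5′ to 3′. Capitals mark the single copy of the hexamer in each, which lies on the opposite strand and so reads TGACCT.
Cd36: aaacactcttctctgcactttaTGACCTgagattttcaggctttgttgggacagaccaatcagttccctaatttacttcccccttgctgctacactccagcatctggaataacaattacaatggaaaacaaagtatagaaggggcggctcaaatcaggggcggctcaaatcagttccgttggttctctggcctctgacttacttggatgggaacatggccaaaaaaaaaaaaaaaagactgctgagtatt
Plin2: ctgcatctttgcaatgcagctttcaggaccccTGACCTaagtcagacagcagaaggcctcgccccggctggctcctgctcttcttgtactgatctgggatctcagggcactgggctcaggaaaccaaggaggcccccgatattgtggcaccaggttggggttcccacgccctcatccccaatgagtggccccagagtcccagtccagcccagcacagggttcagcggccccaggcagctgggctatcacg
The Cd36 window is chr5:17835897-17836146 on the minus strand and belongs to a start inside the annotated gene. The Plin2 window is chr4:86670060-86670309, also on the minus strand. The hexamer begins at base 23 of the Cd36 window and at base 33 of the Plin2 window. The full repeat, searched on both strands, was in none of the windows of the 5 genes and in 0.0335% of all 32851 RefSeq windows of this length. The hexamer alone, which the full repeat contains, was in 14% of all windows. Among the other members, 2 of the 3 Pparg windows held it, and the Fabp3 and Plin4 windows did not. A match is a run of letters and not evidence of binding.

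Levels are given in counts-per-million units (CPM). Sequencing depth was 45545182 to 64168308 counts per sample, so that 3 counts, the level taken as the limit of detection, corresponded to 0.0477 to 0.0668 CPM. Samples of the HER2 mutant were less alike than those of the other genotypes, with a mean correlation to their own genotype of 0.932 to 0.946 against 0.958 to 0.981. Erbb2, which encodes HER2, had 144.7 to 188 CPM in the WT and PIK3CA mutant samples and 1499 to 4632 CPM in the HER2 and double mutant samples, as labelled. Gene counts do not show which Pik3ca allele was transcribed. All 6 epithelial markers were present in every sample, at summed levels of 2011 to 4688 CPM.

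The 6 pairs of genotypes were compared. The interaction was also tested: on the log2 scale, it is the double mutant's change from WT minus both single-mutant changes added up. A gene was called at an adjusted p under 0.05 in edgeR's quasi-likelihood test, adjusted with the Benjamini-Hochberg method over the 24252 genes tested. Against WT, the PIK3CA mutant had 1 of the 7 tested genes other than Fabp4 lower, Plin2, where 4.52% of all genes were called and 3.03% were called lower. The HER2 mutant also had Plin2 alone lower, where 10.4% of all genes were called and 5.63% called lower. The double mutant had Plin2 lower and Fabp5 higher, where 11.8% of all genes were called, 6.72% lower and 5.03% higher. Between mutants, Cidea was lower in the double than in the HER2 mutant (2.50% of all genes called, 1.47% lower). No tested member was called between the double and PIK3CA mutants (0.672% of all genes called), where 3 had an unadjusted p under 0.05 and DESeq2 called 0. None was called between the HER2 and PIK3CA mutants (4.41% of all genes called), where 1 had an unadjusted p under 0.05 and DESeq2 called 0. Plin2 was called in the interaction, above 0 (1.06% of all genes called, 0.515% above 0).

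The median log2 fold change of the 7 genes against WT was -1.16 in PIK3CA mutants, -0.72 in HER2 mutants and -1.02 in double mutants, and the medians over all tested genes were -0.03, 0.03 and 0.01. All PIK3CA mutant samples lay below all WT samples for 4 of the 7 (15.7% of all genes), all HER2 mutant samples for 1 (12.4%) and all double mutant samples for 3 (13.4%). All samples lay above WT for 1 of the 7 in PIK3CA mutants (13.8% of all genes) and 1 in double mutants (9.68%), and 1 lay above all PIK3CA mutant samples in double mutants (3.42%). The 3 comparisons share the WT samples. Between the mutants the medians were smaller, at -0.18 for double against HER2 mutants, 0.19 for double against PIK3CA mutants and 0.37 for HER2 against PIK3CA mutants.

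**Figure D1:**
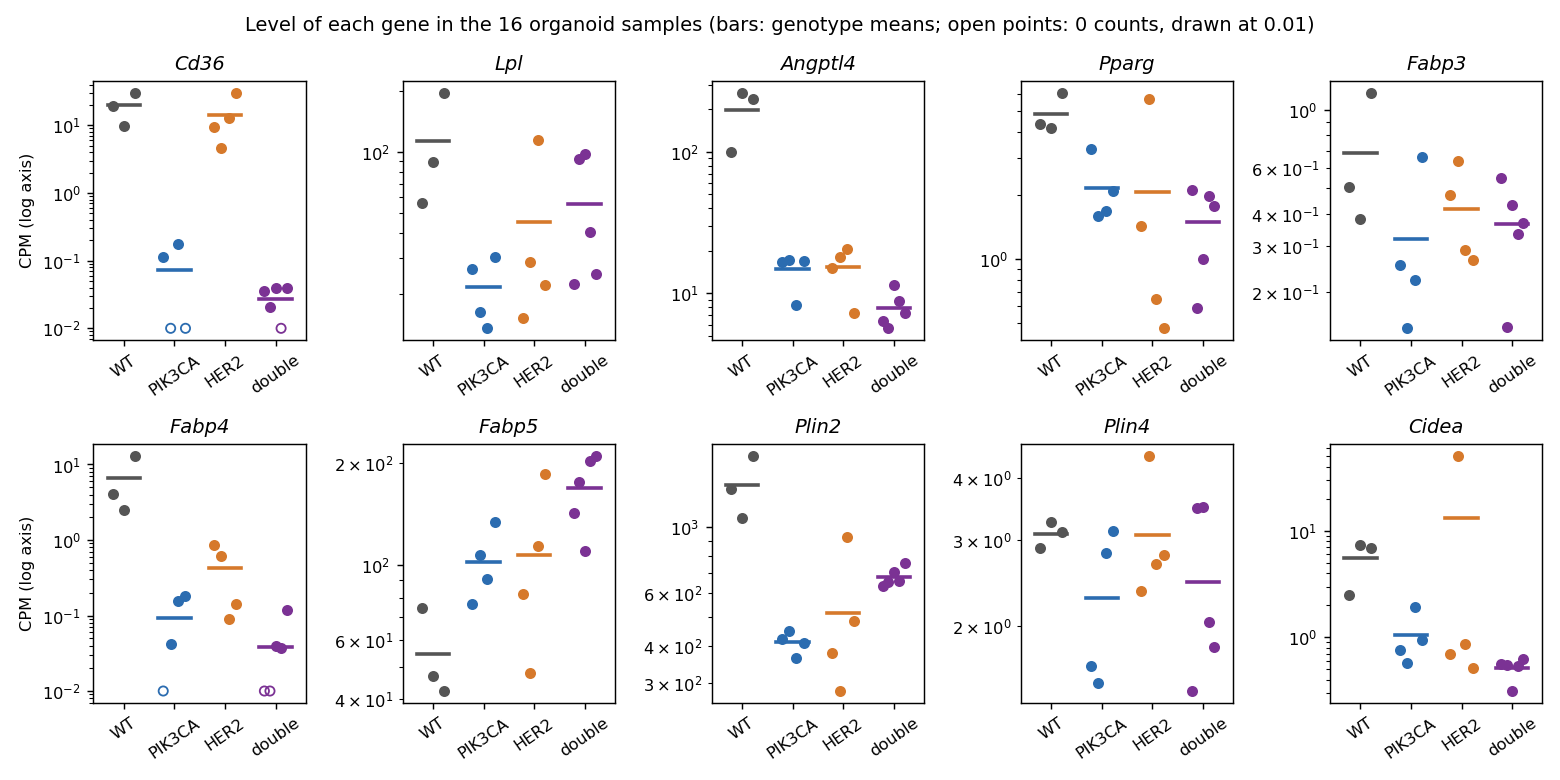
Level of each of the 10 genes in the 16 samples, in CPM on a log axis that differs between panels, by genotype; points are samples, bars are genotype means, and open points are samples with 0 counts, drawn at 0.01. Cd36 lies between 4.59 and 30.2 CPM in every WT and HER2 mutant sample and at or below 0.177 CPM in every PIK3CA and double mutant sample, whereas Angptl4 is high in the WT samples alone.

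Cd36 (ENSMUSG00000002944, chromosome 5, 17781690 to 17888801 in GRCm38, minus strand) had, as a ratio, the widest range of genotype means of the 10 genes. WT replicates 1 to 3 had 19.5, 9.89 and 29.9 CPM. HER2 mutant replicates 1 to 4 had 9.34, 4.59, 13.0 and 30.2 CPM, which overlapped WT. In PIK3CA mutant samples only 7, 0, 8 and 0 reads of Cd36 were counted, or 0.111, 0, 0.177 and 0 CPM, so 2 samples were just above the limit of detection and 2 had no read. Double mutant samples had 2, 1, 2, 0 and 2 reads, at most 0.0393 CPM, all below that limit. Each sample with the PIK3CA mutation was thus below each sample without it, whether or not the HER2 mutation was present.

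The size of that difference is limited by the few reads left. Pooled over the samples of a genotype, Cd36 CPM was 288 times higher in WT than in PIK3CA mutants (95% exact Poisson interval 174 to 515) and 199 times higher in HER2 than in PIK3CA mutants (121 to 356). The pooled ratio was 757 for WT over double mutants (367 to 1885) and 523 for HER2 over double mutants (254 to 1303). These intervals cover counting error only. The fitted log2 fold change was -8.07 in PIK3CA mutants against WT (SE 0.880) and -8.93 in double against HER2 mutants (SE 0.854). HER2 mutants against WT gave -0.47 (SE 0.638, 95% interval -1.82 to 0.89). No fold is given between the double and PIK3CA mutants, since both were near or below the limit of detection.

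Cd36 is also expressed by macrophages, adipocytes and endothelial cells, so markers of these cells were measured in the same samples. Bulk RNA cannot tell fewer cells of a type from less RNA per cell. The summed level of 10 macrophage markers was 1081 to 3920 CPM in WT, 610.0 to 773 CPM in PIK3CA mutants, 272 to 450.3 CPM in HER2 mutants and 239 to 425 CPM in double mutants. All 10 markers were above the limit of detection in each WT sample, 7 to 10 in the single mutants and 5 to 9 in the double mutants. The WT samples ranked in the same order for the marker sum (2101, 1081 and 3920 CPM) as for Cd36. Much of the sum in the mutants was Cd14, with means of 278 to 650.2 CPM. Lyz2, the macrophage lysozyme, had a mean of 1388 CPM in WT, 2.84 CPM in PIK3CA mutants and 0.177 CPM in double mutants. Among HER2 mutants, replicates 1 and 2 had 142 and 58.2 CPM of Lyz2, but replicates 3 and 4 had 0.200 and 0.123 CPM. Replicates 3 and 4 had the most Cd36 of the HER2 mutants, 13.0 and 30.2 CPM, and in replicate 4 the macrophage genes Adgre1 and C1qa had no read. All markers but Cd68 and Cd14 were lower in replicates 3 and 4 than in replicates 1 and 2. Cd68 and Cd14 were highest of the HER2 mutants in replicate 3. In replicates 3 and 4, 7 of the 10 markers still reached the limit of detection, some with few reads, such as Lyz2 with 9 and 6. Whether these samples held macrophage RNA was not tested. The part of macrophage RNA in the WT level of Cd36 was not tested.

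Adipocyte and endothelial markers were low throughout. The adipokine gene Adipoq had 6, 3, 2 and 4 reads in all WT, PIK3CA, HER2 and double mutant samples together, and Lep had 5, 5, 11 and 9. The sum of 8 adipocyte markers, 10.9 to 37.3 CPM over the 16 samples, was mostly Lipe. The 7 endothelial markers summed to 1.86 to 4.80 CPM in WT and 0.432 to 1.70 CPM in the mutants. The 6 fibroblast markers summed to 325 to 1899 CPM in WT, 65.1 to 471 CPM in PIK3CA mutants, 34.0 to 624 CPM in HER2 mutants and 26.2 to 58.0 CPM in double mutants.

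**Figure D2:**
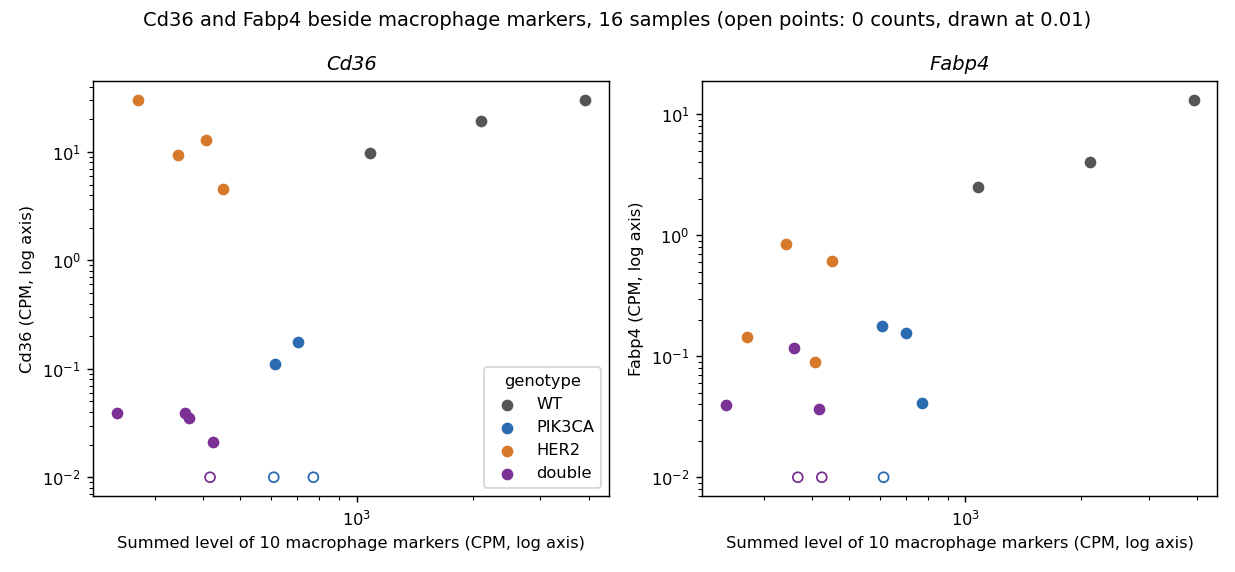
Cd36 (left) and Fabp4 (right) in CPM against the summed CPM of 10 macrophage markers, both on log axes, for the 16 samples colored by genotype; open points are samples with 0 counts, drawn at 0.01. The HER2 mutant sample with the lowest marker sum, 272 CPM, has the highest Cd36, 30.2 CPM, whereas Fabp4 is above 2 CPM in the WT samples alone. Cd14 alone had 262 CPM in that HER2 mutant sample.

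Angptl4 (ENSMUSG00000002289, chromosome 17, 33773750 to 33781830, minus strand) followed another pattern. WT replicates had 99.4, 262 and 237 CPM. PIK3CA mutant replicates had 16.6, 17.2, 8.19 and 17.0 CPM, and HER2 mutant replicates 15.0, 18.2, 20.5 and 7.21 CPM. All 5 double mutant samples, at 6.33, 5.64, 11.4, 8.85 and 7.29 CPM, were below WT and overlapped the single mutants. Every mutant genotype was low, with or without the PIK3CA mutation. WT samples ranked for Angptl4 as for the fibroblast marker sum (325, 1899 and 1557 CPM), but not as for the macrophage marker sum (2101, 1081 and 3920 CPM). The macrophage sum was lower in every mutant sample than in WT. Replicate 4 of the PIK3CA and of the HER2 mutants had fibroblast sums of 471 and 624 CPM, above WT replicate 1. Their Angptl4 levels were 17.0 and 7.21 CPM. The part of these cells was not tested. The fitted log2 fold change against WT was -3.76 (SE 0.398) in PIK3CA, -3.71 (SE 0.397) in HER2 and -4.66 (SE 0.377) in double mutants. HER2 and PIK3CA mutants differed by 0.05 (SE 0.349, 95% interval -0.69 to 0.79). The sum of the single-mutant changes was larger in size than the change of the double mutant, by 2.81 log2 units (SE 0.507).

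Lpl (ENSMUSG00000015568, chromosome 8, 68880491 to 68907448) passed edgeR's test in no comparison. WT samples had 55.9, 89.5 and 197 CPM, and PIK3CA mutants had 26.3, 16.3, 13.5 and 30.4 CPM, all below WT. HER2 mutants had 15.1, 28.8, 115 and 22.2 CPM. Double mutants had 22.3, 92.5, 98.4, 40.3 and 24.9 CPM, and both of these genotypes overlapped WT. The log2 fold change in PIK3CA mutants was -2.40 (adjusted p 0.0605 by edgeR, SE 0.687), the closest of the 6 pairs to the threshold. DESeq2 called that difference (adjusted p 0.00664), as did edgeR without the filter on low counts (adjusted p 0.0340) and in a fit of these genotypes alone (adjusted p 0.00775). Without HER2 mutant replicate 3, the highest of its genotype, HER2 mutants were called lower than WT, at -2.37 (edgeR adjusted p 0.0274).

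Pparg (ENSMUSG00000000440, chromosome 6, 115360951 to 115490399), the gene of the fat-cell PPAR, was weakly expressed. It had 4.14 to 6.11 CPM in WT, 1.59 to 3.32 CPM in PIK3CA mutants and 0.587 to 2.11 CPM in double mutants, both below all WT samples. HER2 mutant samples had 1.43, 5.72, 0.645 and 0.471 CPM, with replicate 2 at the WT level. No comparison passed edgeR's test. The log2 fold change against WT was -1.16 (SE 0.655) in PIK3CA mutants, -1.23 (SE 0.656) in HER2 mutants and -1.70 in double mutants (adjusted p 0.0880 by edgeR, SE 0.619). DESeq2 called the double mutant lower than WT (adjusted p 0.0424), and edgeR fits of the compared genotypes alone called the double (adjusted p 0.0224) and PIK3CA mutants (adjusted p 0.0266) lower. Without HER2 mutant replicate 2, the HER2 mutant change was -2.51 (edgeR adjusted p 0.00681). An antisense gene, Gm44079, overlaps Pparg, and with the strandedness of the counting not given in the sources used here, their reads cannot be told apart.

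The 3 fatty acid binding proteins differed in direction. Fabp4 (ENSMUSG00000062515, chromosome 3, 10204088 to 10208576, minus strand), the carrier typical of adipocytes and macrophages, was low in every mutant genotype. WT samples had 4.02, 2.52 and 13.1 CPM. PIK3CA mutants had 0, 0.0413, 0.155 and 0.179 CPM and double mutants 0, 0, 0.0393, 0.0369 and 0.117 CPM. HER2 mutants had 0.849, 0.617, 0.0890 and 0.143 CPM. Their mean, 0.424 CPM, lay between WT and the others, but their samples overlapped the PIK3CA and double mutants. All mutant samples lay below all WT samples. Fabp4 passed the filter on low counts through WT, where it is high. The tests against WT that follow are thus a description and not support for a change. Relative to WT, the log2 fold change was -6.13 in PIK3CA mutants (adjusted p 0.00241 by edgeR, SE 1.02), -3.93 in HER2 mutants (adjusted p 0.0123 by edgeR, SE 0.890) and -7.33 in double mutants (adjusted p 0.000362 by edgeR, SE 1.00). The pooled ratio of WT was 76.5 over PIK3CA mutants (95% exact Poisson interval 48.8 to 128), 15.5 over HER2 mutants (12.4 to 19.4) and 178 over double mutants (96.6 to 373).

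The HER2 mutant call for Fabp4 was lost without WT replicate 3, the sample with the most Fabp4 and the most macrophage marker RNA (log2 fold change -2.93, edgeR adjusted p 0.106). It was also lost in a fit of these genotypes alone (edgeR adjusted p 0.0630). WT samples ranked alike for Fabp4 and the macrophage sum, and the HER2 mutant samples with 142 and 58.2 CPM of Lyz2 had more Fabp4 than those with 0.200 and 0.123 CPM. The part of macrophage RNA in the Fabp4 change was not tested.

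Fabp5 (ENSMUSG00000027533, chromosome 3, 10012548 to 10016607), the epidermal-type carrier, was the member that rose. WT samples had 74.4, 46.9 and 42.4 CPM, and all double mutants were above them at 142, 176, 109.8, 203 and 211 CPM. PIK3CA mutants had 76.6, 107, 91.1 and 134 CPM, also all above WT. HER2 mutants had 82.0, 47.7, 114 and 185 CPM and overlapped WT. The log2 fold change was 1.63 in double mutants (adjusted p 0.00875 by edgeR, SE 0.367), 0.90 in PIK3CA mutants (adjusted p 0.210 by edgeR, SE 0.367) and 0.97 in HER2 mutants (adjusted p 0.105 by edgeR, SE 0.368). The double mutant call was lost without WT replicate 3 (log2 fold change 1.47, edgeR adjusted p 0.0675). Without HER2 mutant replicate 2, Fabp5 was also called in HER2 mutants (edgeR adjusted p 0.0246), and it was called in PIK3CA mutants in a fit of these genotypes alone (edgeR adjusted p 0.0331).

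Fabp3 (ENSMUSG00000028773, chromosome 4, 130308595 to 130315463), the carrier of heart and muscle, was near the lower end of what was measured. It ranged over 0.380 to 1.17 CPM in WT, 0.145 to 0.661 in PIK3CA mutants, 0.266 to 0.636 in HER2 mutants and 0.147 to 0.550 in double mutants. Genotypes overlapped in each of the 6 pairs and no pair passed the test. Its counts are uncertain, because Zcchc17 and Gm10570 overlap it on the opposite strand.

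Plin2 (ENSMUSG00000028494, chromosome 4, 86648386 to 86670060, minus strand), the perilipin that coats droplets in most cell types, was the most abundant member and fell in every mutant genotype. WT samples had 1341, 1072 and 1731 CPM. PIK3CA mutants had 422, 449, 365 and 410.0 CPM, and HER2 mutants had 379.8, 283, 922 and 484 CPM. Double mutants had 633, 656, 706, 660.0 and 756 CPM, below all WT and above all PIK3CA mutant samples. Relative to WT, the log2 fold change was -1.75 in PIK3CA mutants (adjusted p 0.00237 by edgeR, SE 0.289), -1.42 in HER2 mutants (adjusted p 0.00686 by edgeR, SE 0.288) and -1.02 in double mutants (adjusted p 0.0228 by edgeR, SE 0.271). Double mutants against PIK3CA mutants gave 0.73 (SE 0.257), which did not pass the test (edgeR adjusted p 0.246). It was called in a fit of these genotypes alone (edgeR adjusted p 0.0117).

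In double mutants the fall of Plin2 was smaller than the sum of the single-mutant falls, with an interaction of 2.15 log2 units (adjusted p 0.0158 by edgeR, SE 0.387). The interaction was lost without WT replicate 3 (1.95, edgeR adjusted p 0.0652). The double mutant call was lost without WT replicate 1 (-1.04, edgeR adjusted p 0.0660) and without WT replicate 3 (-0.82, edgeR adjusted p 0.148), and the HER2 mutant call in a fit of these genotypes alone (edgeR adjusted p 0.102). The PIK3CA mutant call was kept in every alternative run. WT samples ranked for Plin2 as for the macrophage marker sum, which was lower in every mutant sample than in WT, and its part in the fall was not tested.

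Plin4 (ENSMUSG00000002831, chromosome 17, 56100591 to 56109803, minus strand), a perilipin of fat and muscle, had 1.47 to 4.45 CPM over all 16 samples. No pair of genotypes passed the test, and the log2 fold changes against WT were -0.44 in PIK3CA, -0.01 in HER2 and -0.33 in double mutants. Their 95% intervals were -1.18 to 0.31, -0.75 to 0.74 and -1.04 to 0.38. Hdgfl2 overlaps Plin4 on the opposite strand, so its counts are uncertain.

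Cidea (ENSMUSG00000024526, chromosome 18, plus strand), a droplet-fusion protein of brown fat that is also made in the mammary gland, depended on 1 sample. WT samples had 2.52, 7.36 and 6.91 CPM, PIK3CA mutants 0.763, 0.578, 1.93 and 0.947 CPM and double mutants 0.567, 0.545, 0.314, 0.536 and 0.622 CPM. HER2 mutant replicate 2 had 50.9 CPM, whereas replicates 1, 3 and 4 had 0.698, 0.868 and 0.512 CPM. All PIK3CA and double mutant samples were below WT, yet neither passed the test, with log2 fold changes of -2.41 (adjusted p 0.316 by edgeR, SE 1.17) and -3.43 (adjusted p 0.0608 by edgeR, SE 1.13). Both genotypes were called lower in edgeR fits of the compared genotypes alone (adjusted p 0.0112 and 0.000571). Without the filter on low counts, edgeR called the double mutant lower (adjusted p 0.0446). Double against HER2 mutants was called at -4.67 (adjusted p 0.0435 by edgeR, SE 1.14). Without HER2 mutant replicate 2 that difference was -0.42 (edgeR adjusted p 0.689), and the HER2 mutant change against WT turned from 1.24 to -3.01 (edgeR adjusted p 0.00212). The call was also lost without any 1 of the 5 double mutant samples, at edgeR adjusted p 0.0723 to 0.0931. B430212C06Rik overlaps Cidea on the opposite strand.

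**Figure D3:**
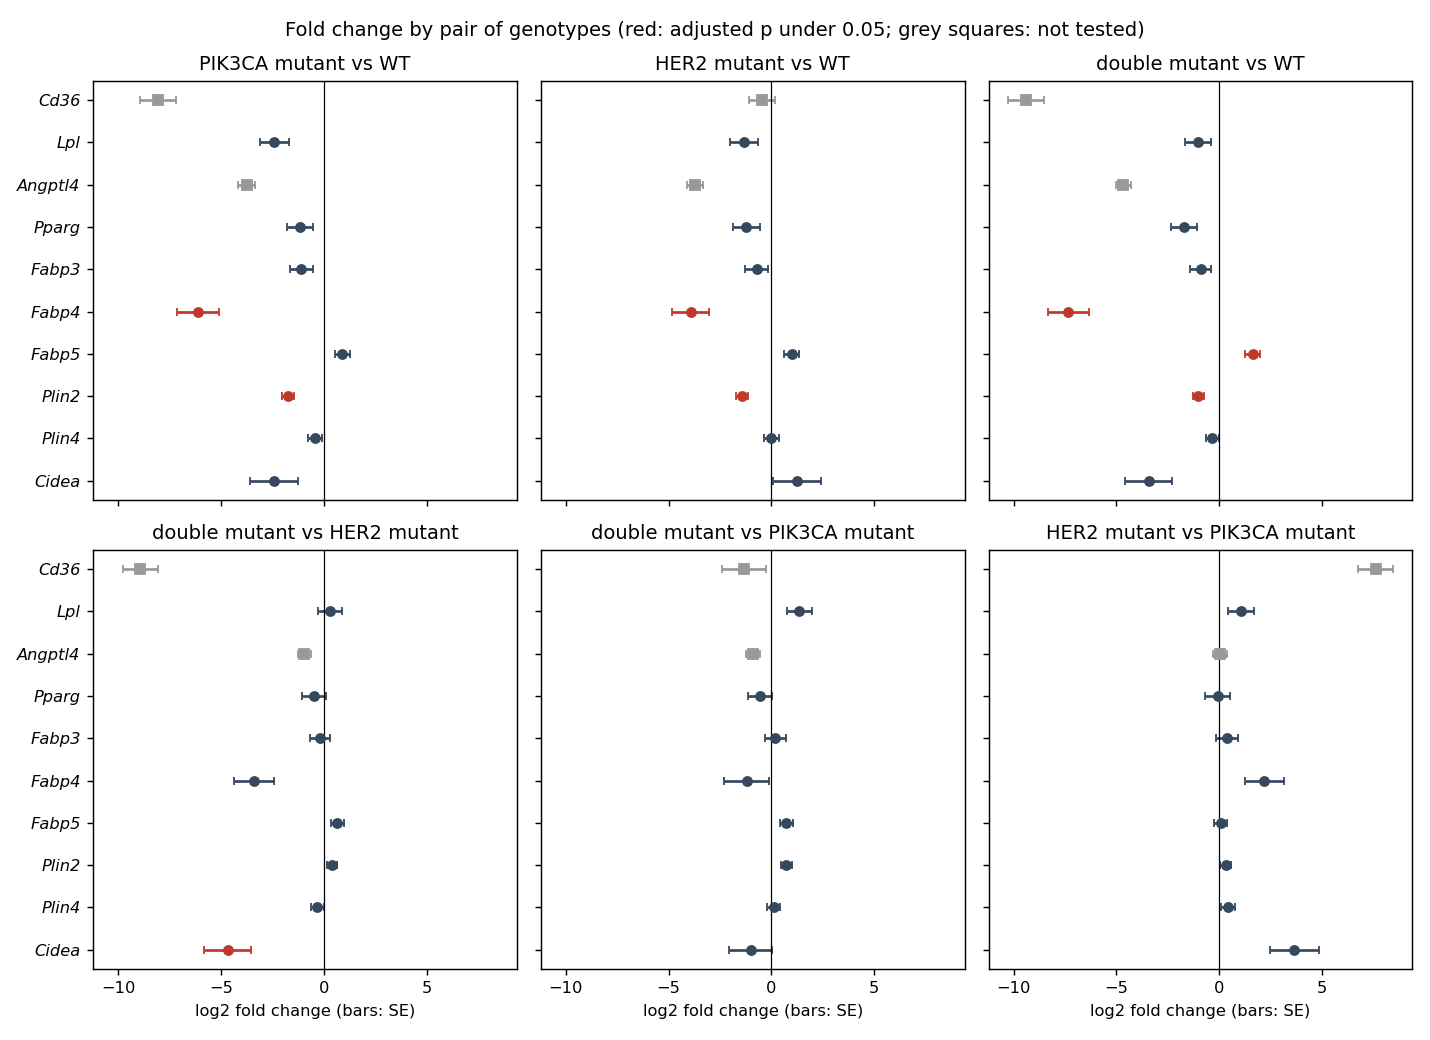
Log2 fold change of the 10 genes in the 6 pairs of genotypes, with bars of 1 SE; red points passed the test, dark points did not, and grey squares mark Cd36 and Angptl4, which were not tested. Plin2 is red and left of 0 in the 3 comparisons with WT, and Fabp5 is red and right of 0 in the double mutant. Fabp4 is also red and left of 0 in the 3 comparisons with WT, as a description, since it passed the filter through WT.

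Levels of different genes were compared only per kilobase of exon, as RPKM. In WT the order of the mean RPKM was Plin2 (393), Angptl4 (56.3), Fabp5 (15.3), Lpl (10.9), Cd36 (5.50), Cidea (5.02), Pparg (1.65), Fabp4 (1.46), Fabp3 (0.832) and Plin4 (0.534). In double mutants Fabp5 at 47.2 RPKM came next after Plin2 at 194 RPKM. Angptl4 was at 2.23 RPKM there, and Cd36 and Fabp4 were last at 0.00750 and 0.00859 RPKM. Neighbours such as Cd36 and Cidea in WT (SD 2.79 and 2.40 RPKM, n = 3) or Pparg and Fabp4 in WT (SD 0.367 and 1.28 RPKM) did not differ beyond their spread.

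**Figure D4:**
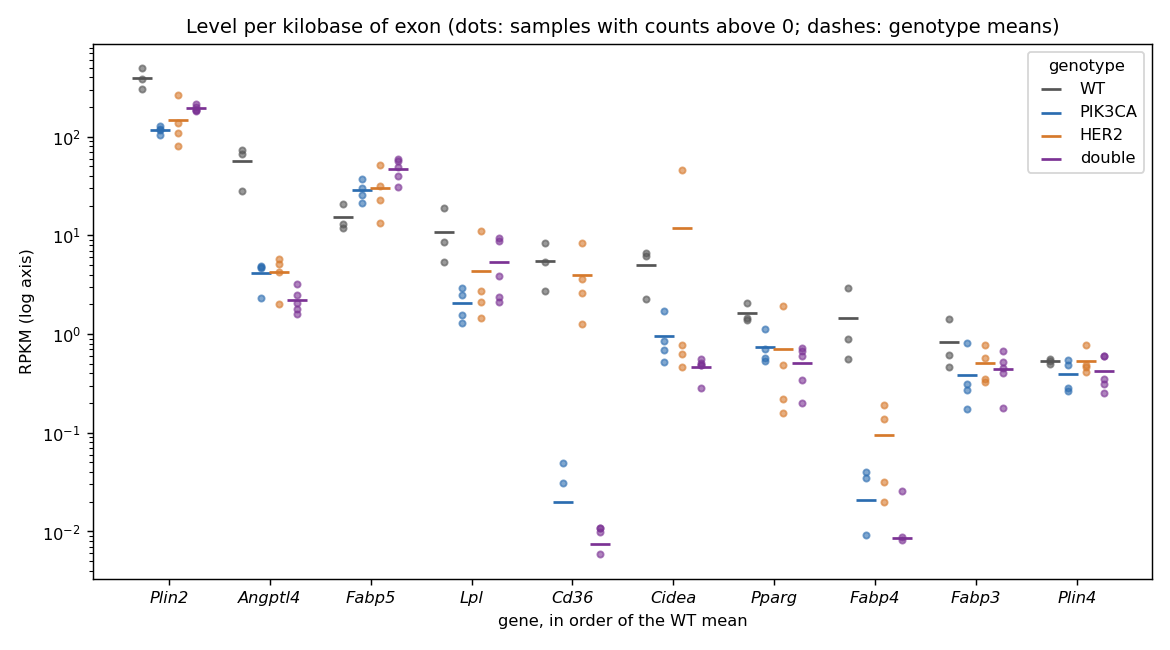
Level per kilobase of exon (RPKM, log axis) of the 10 genes, in the order of their WT mean; dots are samples with counts above 0 and dashes are genotype means. Plin2 heads the order in all 4 genotypes, and the PIK3CA and double mutant means of Cd36 lie at 0.0201 and 0.00750 RPKM, against 5.50 RPKM in WT.

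The remaining genes of the pathway were read from 4 lists, chosen with earlier results of these data known, that hold none of the 10 members. Among 15 tested genes of fatty acid uptake, binding and activation, 2 were called higher than WT in PIK3CA mutants, 2 in HER2 mutants and 3 in double mutants, and none lower. Of all genes, 1.49%, 4.75% and 5.03% were called higher in these comparisons. The median log2 fold change of this list was 0.11, 0.05 and 0.02, against -0.03, 0.03 and 0.01 over all genes. Vldlr, a receptor for triglyceride-rich lipoproteins, rose in all 3, from a mean of 61.3 CPM in WT to 193 CPM with mutant PIK3CA, 138 CPM with mutant HER2 and 162 CPM with both. Its log2 fold changes were 1.66 (adjusted p 0.00251 by edgeR, SE 0.277), 1.17 (adjusted p 0.0139 by edgeR, SE 0.272) and 1.399 (adjusted p 0.00299 by edgeR, SE 0.266). Lipg, the endothelial lipase gene, rose in HER2 mutants by 3.39 (adjusted p 0.0136 by edgeR, SE 0.783) and in double mutants by 3.15 log2 units (adjusted p 0.0135 by edgeR, SE 0.760). Cav1, a caveolar coat protein, rose in PIK3CA mutants by 1.76 (adjusted p 0.0271 by edgeR, SE 0.429) and in double mutants by 1.84 (adjusted p 0.00943 by edgeR, SE 0.420). The Lipg calls, the Cav1 calls and the HER2 mutant call of Vldlr were lost without WT replicate 1 (edgeR adjusted p 0.0615 to 0.136) and without WT replicate 3 (0.0698 to 0.169). The Cav1 call in PIK3CA mutants was also lost without replicate 1, 2 or 4 of that genotype (edgeR adjusted p 0.0638 to 0.0708).

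Of 15 tested PPAR receptors, partners and cofactors, none was called in PIK3CA mutants, 1 was lower in HER2 mutants and 2 were lower in double mutants than in WT. Of all genes, 3.03%, 5.63% and 6.72% were called lower there. The list's median log2 fold change was 0.07, -0.22 and -0.25. Rxra, the dimer partner, had 336 CPM in WT and 178 to 192 CPM in the mutants. It fell by 0.87 in HER2 mutants (adjusted p 0.0324 by edgeR, SE 0.242) and by 0.91 in double mutants (adjusted p 0.0166 by edgeR, SE 0.229), and both calls were lost without WT replicate 1 (edgeR adjusted p 0.0960 and 0.0603) and without WT replicate 3 (0.143 and 0.0951). The HER2 mutant call of Rxra was lost too without HER2 mutant replicate 2, 3 or 4 (edgeR adjusted p 0.0663 to 0.0678). Ncoa1, a coactivator, fell by 0.52 in double mutants (adjusted p 0.00601 by edgeR, SE 0.110), a call that was lost without WT replicate 1 (edgeR adjusted p 0.0519).

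Among 28 tested PPAR target genes of fatty acid oxidation and metabolism, 3 were lower than WT in PIK3CA mutants, 7 in HER2 mutants and 5 in double mutants, and none was higher. Over all genes, 3.03%, 5.63% and 6.72% were called lower. The list's median log2 fold change was -0.41, -0.25 and -0.40, against -0.03, 0.03 and 0.01 over all genes. Cpt1a, which admits fatty acids to mitochondria, had 103 to 183 CPM in WT and 14.7 to 42.3 CPM in all mutant samples. Its log2 fold change was -2.31 in PIK3CA (adjusted p 0.00104 by edgeR, SE 0.312), -2.57 in HER2 (adjusted p 0.000375 by edgeR, SE 0.314) and -2.32 in double mutants (adjusted p 0.000217 by edgeR, SE 0.290). As for Plin2, the double mutant's fall was smaller than the sum of the single-mutant falls (interaction 2.56, SE 0.415, edgeR adjusted p 0.00980). Decr1, which acts on unsaturated fatty acids, fell in HER2 mutants by 1.07 (adjusted p 0.0149 by edgeR, SE 0.250), and that call was lost without WT replicate 2 or 3 (edgeR adjusted p 0.0554 and 0.0668).

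Pdk4, a kinase that restrains the use of glucose in mitochondria, was low in PIK3CA and double mutants and varied widely among HER2 mutants. WT samples had 14.7, 56.1 and 27.9 CPM, and HER2 mutants had 3.02, 97.2, 12.5 and 0.798 CPM. PIK3CA mutants had 0.351 to 1.57 CPM and double mutants 0.0709 to 0.713 CPM. The log2 fold change was -5.26 in PIK3CA mutants (adjusted p 0.0187 by edgeR, SE 1.21) and -6.38 in double mutants against WT (adjusted p 0.00227 by edgeR, SE 1.16), and -0.21 in HER2 mutants (adjusted p 0.923 by edgeR, SE 1.05). Double against HER2 mutants gave -6.16 (adjusted p 0.0109 by edgeR, SE 1.13), and HER2 against PIK3CA mutants gave 5.05 (adjusted p 0.0247 by edgeR, SE 1.17). HER2 and PIK3CA mutant samples overlapped, and the HER2 mutant level rested on replicate 2. Without it, the change of HER2 mutants against WT was -2.60 (edgeR adjusted p 0.0659). The difference between HER2 and PIK3CA mutants was then 2.66 (edgeR adjusted p 0.0707), and was lost as well without each of the PIK3CA mutant samples (edgeR adjusted p 0.0569 to 0.0852). The call in PIK3CA mutants against WT was lost without WT replicate 3 (edgeR adjusted p 0.0527) and without PIK3CA mutant replicate 1, 2 or 4 (0.0629 to 0.0702). The call of double against HER2 mutants was lost in a fit of these genotypes alone (edgeR adjusted p 0.0854).

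Acot1 and Acot2, acyl-CoA thioesterases with near-identical relatives whose reads may be shared, were higher in HER2 than in PIK3CA mutants. The differences were 1.73 (adjusted p 0.0264 by edgeR, SE 0.408) and 1.18 log2 units (adjusted p 0.0407 by edgeR, SE 0.305). Acot1 was also lower in double than in HER2 mutants by a log2 fold change of -1.49 (adjusted p 0.0493 by edgeR, SE 0.377), and Acot2 lower in PIK3CA mutants than in WT by -1.29 (adjusted p 0.0310 by edgeR, SE 0.323). Each of these calls was lost without 1 of at least 5 single samples. Without HER2 mutant replicate 4 the HER2 against PIK3CA difference was 1.31 for Acot1 (edgeR adjusted p 0.0622) and 0.75 for Acot2 (edgeR adjusted p 0.0927), and the double against HER2 difference of Acot1 was -1.07 (edgeR adjusted p 0.129). Without WT replicate 3, Acot2 in PIK3CA mutants was at -1.13 (edgeR adjusted p 0.175).

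Of 22 tested genes of the droplet coat, lipolysis and triglyceride synthesis, 3 were higher and 1 lower than WT in PIK3CA mutants, 7 higher and 1 lower in HER2 mutants, and 2 higher and 1 lower in double mutants. The shares of all genes called higher were 1.49%, 4.75% and 5.03%, and called lower 3.03%, 5.63% and 6.72%. The list's median log2 fold change was -0.11, 0.31 and 0.26. Abhd5, the coactivator of triglyceride lipase, rose in all 3, by 0.93 (adjusted p 0.0159 by edgeR, SE 0.208), 0.93 (adjusted p 0.0119 by edgeR, SE 0.208) and 1.23 log2 units (adjusted p 0.00115 by edgeR, SE 0.204). The single-mutant calls of Abhd5 were lost without WT replicate 1 (edgeR adjusted p 0.0761 and 0.0555) and without WT replicate 3 (0.102 and 0.0698). Hilpda, an inhibitor of that lipase, fell in PIK3CA mutants by 1.15 (adjusted p 0.0137 by edgeR, SE 0.250) and in HER2 mutants by 1.05 (adjusted p 0.0155 by edgeR, SE 0.250). Both Hilpda calls were lost without WT replicate 2 (edgeR adjusted p 0.0575 and 0.0633) and without WT replicate 3 (0.0592 and 0.0599), and that of PIK3CA mutants also without their replicate 2 (0.0546). Gpat4, an enzyme of triglyceride synthesis, was higher in HER2 mutants than in WT by 1.07 (adjusted p 0.00713 by edgeR, SE 0.219) and than in PIK3CA mutants by 1.20 (adjusted p 0.00457 by edgeR, SE 0.200). In double mutants Gpat4 was lower than in HER2 mutants, at -0.86 (adjusted p 0.0251 by edgeR, SE 0.186), a call lost without HER2 mutant replicate 4 (-0.66, edgeR adjusted p 0.0559) and without double mutant replicate 4 or 5 (0.0611 and 0.0548).

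Btn1a1 and Xdh, whose products join PLIN2 on the surface of secreted milk fat globules, were high in the HER2 mutant. Btn1a1 had 77.0, 93.4, 326 and 364 CPM in HER2 mutant samples, against 2.40 to 6.36 CPM in WT, 1.28 to 2.34 CPM in PIK3CA mutants and 2.65 to 21.3 CPM in double mutants. HER2 mutants exceeded WT by 5.74 log2 units (adjusted p 0.00107 by edgeR, SE 0.833) and PIK3CA mutants by 7.02 (adjusted p 0.000465 by edgeR, SE 0.780), and double mutants were lower than HER2 mutants at -4.68 (adjusted p 0.00198 by edgeR, SE 0.631). Xdh rose in PIK3CA mutants by 0.96 (adjusted p 0.0179 by edgeR, SE 0.218) and in HER2 mutants by 1.32 (adjusted p 0.00232 by edgeR, SE 0.221). In double mutants it was at 272 CPM against 221 CPM in WT, 0.30 on the log2 scale, and did not pass the test (adjusted p 0.383 by edgeR, SE 0.206), and the interaction was -1.99 (adjusted p 0.00710 by edgeR, SE 0.288). The PIK3CA mutant call of Xdh was lost without WT replicate 1 or 3 (edgeR adjusted p 0.0681 and 0.126) and without PIK3CA mutant replicate 3 (0.0545). Double mutants had less Xdh than HER2 mutants (-1.03, SE 0.187, edgeR adjusted p 0.0106), which was not called when these genotypes alone were fitted (edgeR adjusted p 0.100). Plin2, the third protein of that surface, was thus lower than WT in the HER2 mutant while both of its partners were higher. Milk markers, a list that includes Btn1a1 and Xdh, summed to 3521 to 5786 CPM in WT, 9125 to 15055 CPM in PIK3CA mutants, 7037 to 52676 CPM in HER2 mutants and 7370 to 23092 CPM in double mutants. Their part in these differences was not tested.

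When WT and HER2 mutants alone were fitted, the HER2 mutant calls of Vldlr, Lipg, Rxra, Decr1, Abhd5, Hilpda, Gpat4 and Xdh were lost, at edgeR adjusted p 0.0509 to 0.125. Fits of the other pairs alone lost the calls of Acot1 and Gpat4 between double and HER2 mutants (edgeR adjusted p 0.161 and 0.182) and those of Pdk4 and Acot2 between HER2 and PIK3CA mutants (0.0968 and 0.121). The falls of Cpt1a against WT and the differences of Btn1a1 were kept in every alternative.

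**Figure D5:**
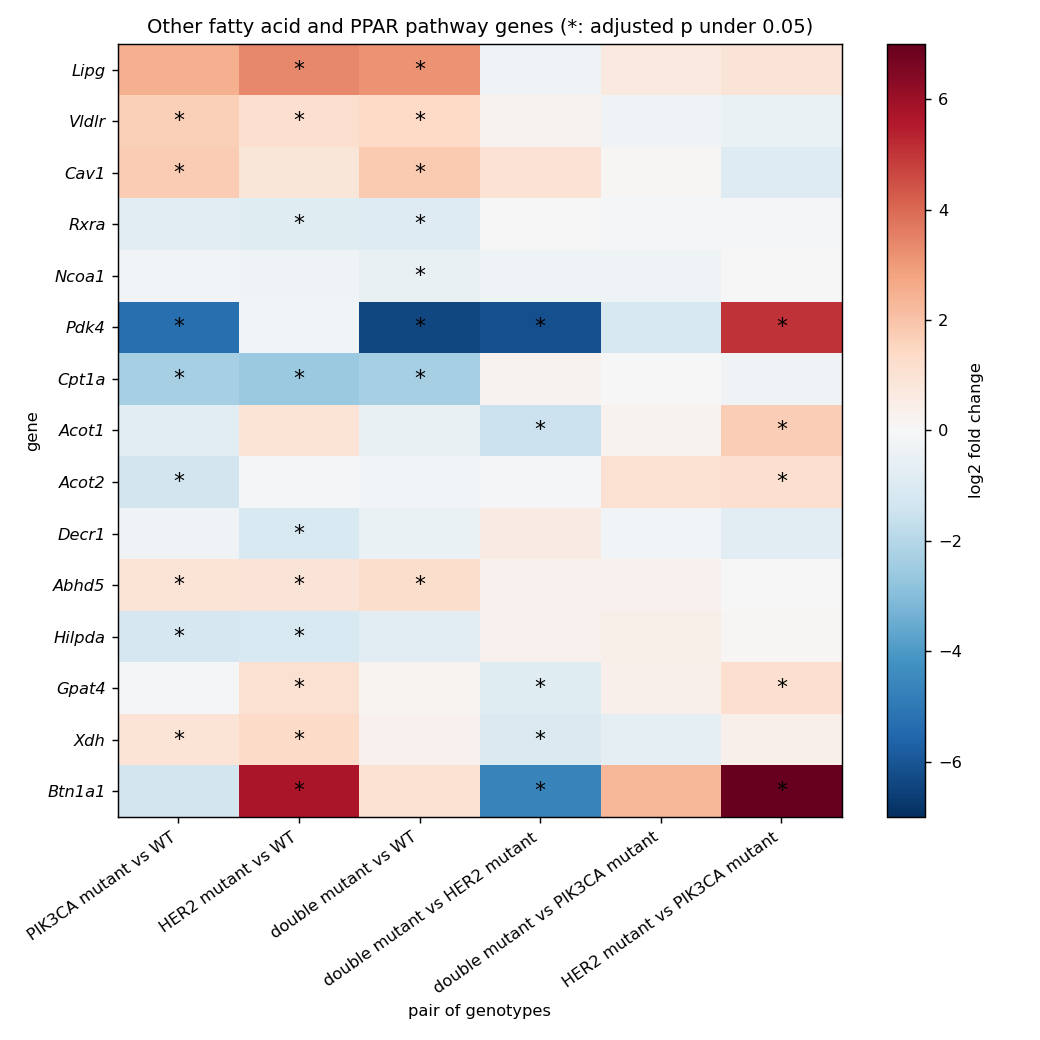
Log2 fold change of the 15 other pathway genes (rows) in the 6 pairs of genotypes (columns), as color from blue (lower in the first genotype) to red (higher); stars mark an edgeR adjusted p under 0.05. Pdk4 is blue in the PIK3CA and double mutants, at -5.26 and -6.38 against WT, and at -0.21 in the HER2 mutant, whereas Cpt1a is blue and Vldlr and Abhd5 are red in each comparison with WT.

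Among the genes whose level was most like that of Cd36 over the 16 samples were Slc41a2 (Pearson r 0.916), Fmn1 (0.914), Wipf1 (0.909) and Ggact (0.893), as a description across samples that share genotype. Wipf1 had a mean of 15.9 CPM in WT, 23.8 CPM in HER2 mutants, 1.38 CPM in PIK3CA mutants and 0.893 CPM in double mutants. Those most like Angptl4 were Pik3r5 (0.925), Stard9 (0.914), Cd302 (0.907), Nfasc (0.894) and Itgb5 (0.891). Nfasc had a mean of 27.5 CPM in WT and 3.05, 3.11 and 0.975 CPM with mutant PIK3CA, mutant HER2 and both. No gene was on both lists.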

How the data were processed

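RNA of 16 organoid samples was made into SMARTer mRNA-seq libraries from total RNA, per the labels' protocols. The table the authors deposited holds whole-number counts per gene and sample, unnormalized. The submitters' processing notes name bcl2fastq 2.20, STAR 2.0.4b, Subread, featureCounts 1.4.5, DESeq2 1.33.5 and the mm10 build, without their roles. Strandedness and annotation release are not given in the sources used here. A deposited table of normalized values was not used.

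Of 55774 table rows, 287 repeats of an identifier were dropped. All 16 samples entered one genotype-only model in edgeR 4.0.16 in R 4.3.3 (filterByExpr, TMM scaling, quasi-likelihood F-test), and was tested on simulated data. CPM used TMM library sizes, log2 CPM a prior count of 2, and RPKM the union of exons in GENCODE annotation of GRCm38. SE was the log2 fold change divided by the root of F. Totals of 45545182 to 64168308 counts per sample set the limit of detection. Exact intervals cover counting error only, as no molecular identifiers are described.

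The alternatives were other scalings (median of ratios, upper quartile), no filter, DESeq2 1.42.0, the replicate number as a block, only the genotypes compared, and each sample left out. The members and the gene lists were chosen with earlier results of these data known. From each pathway list, up to 5 genes were named, with a mean log2 CPM of at least 1, those with the largest change among genes called in a pair of genotypes whose samples did not overlap, and every gene called in the interaction was added. For Cd36 and Angptl4, the 5 genes with the highest correlation of log2 CPM were taken, of which 1 is not reported here.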

Additional observations from a re-analysis of the deposited data

Results flagged for a closer look

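In several genes 1 sample lay apart from the rest of its genotype, by Dixon's criterion at the 95% level. Of 75 groups of 4 or 5 samples examined, over 25 genes, chance alone would set apart about 1 in 20 if values were normally distributed. Lpl was highest in HER2 mutant replicate 3, at 115 CPM against 15.1 to 28.8 CPM in the others. Angptl4, for which this is a description and not a test, was lowest in PIK3CA mutant replicate 3, at 8.19 CPM against 16.6 to 17.2 CPM. Cidea was highest in HER2 mutant replicate 2, at 50.9 CPM against 0.512 to 0.868 CPM, and lowest in double mutant replicate 3, at 0.314 CPM against 0.536 to 0.622 CPM. HER2 mutant replicate 2 was also the highest for Pdk4, at 97.2 CPM against 0.798 to 12.5 CPM, and for Hilpda, at 6.75 CPM against 4.03 to 4.45 CPM. Lipg was highest in PIK3CA mutant replicate 4, at 12.8 CPM against 2.69 to 4.32 CPM, and in double mutant replicate 2, at 18.7 CPM against 5.55 to 9.07 CPM. Btn1a1 was highest in double mutant replicate 1, at 21.3 CPM against 2.65 to 7.46 CPM.

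In 4 genes the double mutant's change from WT differed from both single-mutant changes added up, by the interaction term in edgeR. Every list gene called in the interaction was named, so their number is set by that choice. Of all genes, 1.06% were called in it. WT is the only group from normal breast, so this term cannot be told apart from a change between normal and tumor source that all mutants share. The interaction was 2.15 log2 units for Plin2 (adjusted p 0.0158), 2.56 for Cpt1a (adjusted p 0.00980), 1.48 for Hilpda (adjusted p 0.0480) and -1.99 for Xdh (adjusted p 0.00710). The Hilpda interaction was lost in 14 of the 16 fits that left out a sample, at adjusted p 0.0516 to 0.132. With the replicate number as a block, the interactions of Plin2 (edgeR adjusted p 0.0566), Cpt1a (0.0603) and Hilpda (0.110) were lost.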

How the results depend on the processing

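Against WT, the call of Plin2 in PIK3CA mutants was kept in every alternative, and other scalings changed no member's call. The Fabp4 calls in PIK3CA and double mutants were kept too, but are a description, since that gene passed the filter through WT. Of 39 calls among the named pathway genes, 17 were kept in every fit without 1 sample and 12 in every alternative. The cause of the changes below was not tested.

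Blocking on the replicate number, 1625 genes were called in HER2 mutants against WT, 118 in double against HER2, 19 in double against PIK3CA and 552 in HER2 against PIK3CA mutants, and 35 in the interaction. Of the members, Fabp4 included here, 1 was then called in HER2 mutants against WT, 0 in double against HER2 mutants and 0 in the interaction. The block lost the interactions of Plin2 (adjusted p 0.0566), Cpt1a (0.0603) and Hilpda (0.110), the double against HER2 calls of Cidea (0.361), Pdk4 (0.0881), Xdh (0.0786), Gpat4 (0.0897) and Acot1 (0.139), the HER2 against PIK3CA calls of Pdk4 (0.110) and Acot2 (0.0659), and the calls against WT of Fabp4 in HER2 (0.0507) and Cav1 in PIK3CA mutants (0.0531). The labels do not say what the numbers mark. In double and HER2 mutants, samples of the same number had a mean correlation of deviations of 0.157 (0.0711 to 0.273), and 2 of 4 correlated best with their own number, so the numbers were not taken as pairs.

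Fitting only the genotypes compared, 4136 genes were called in PIK3CA and 541 in HER2 mutants against WT, 37 in double against HER2, 364 in double against PIK3CA and 534 in HER2 against PIK3CA mutants. Members called, Fabp4 included, were then 6 in PIK3CA and 0 in HER2 mutants against WT. In double mutants against WT, Pparg (edgeR adjusted p 0.0224) and Cidea (0.000571) were called in addition to the members of the main fit. Between mutants, members called were 0 in double against HER2 and 1, Plin2, in double against PIK3CA mutants. The number of genes tested in each of these fits is not given here, so the counts carry no share of all genes. Such a fit has no interaction. DESeq2 called 1808 genes in PIK3CA mutants against WT, 1645 in double against HER2, 611 in double against PIK3CA and 2136 in HER2 against PIK3CA mutants, and in the interaction 943 genes and 2 members, Plin2 and Lpl.

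Counts of members in this paragraph include Fabp4. With it, the main fit called 2 in PIK3CA, 2 in HER2 and 3 in double mutants against WT. Leaving out 1 sample gave 396 to 1043 genes and 2 to 2 members in PIK3CA mutants against WT. It gave 733 to 2693 genes and 1 to 5 members in HER2 mutants against WT. In double mutants against WT it gave 1173 to 2961 genes and 1 to 3 members. It gave 256 to 975 genes and 0 to 3 members in double against HER2, 17 to 143 genes and 0 to 0 members in double against PIK3CA, and 427 to 1166 genes and 0 to 1 members in HER2 against PIK3CA mutants. The interaction had 54 to 382 genes and 0 to 2 members. Angptl4 in HER2 against PIK3CA mutants turned to -0.028 with the block. It was -0.15 without PIK3CA mutant replicate 3 and -0.050 and -0.13 without HER2 mutant replicates 2 and 3, in a range up to 0.28. Cidea in HER2 mutants against WT turned to -3.01 without HER2 mutant replicate 2 and was at most 1.65 without another sample. At this depth, Cd36 and Fabp4 in PIK3CA and double mutants had at most 10 counts in a sample, so their folds are imprecise.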
